A study of Mus musculus with 27 samples.

Results

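PD0325901 blocks MEK, the kinase that activates ERK at the end of the Ras-Raf-MEK-ERK cascade. The response to it was read in *Setdb1* cKO iMEFs that had not received 4OHT, by comparing 2 libraries of cells given 1 µM PD0325901 for 24 h with 2 libraries of untreated cells. These 4 libraries were chosen by their sample labels, out of 27 in the series and 10 in the inhibitor experiment, and the description covers all 11509 genes tested. iMEFs are immortalized mouse embryonic fibroblasts, and cKO denotes a conditional knockout allele of *Setdb1*, an H3K9 methyltransferase. All groups of the inhibitor experiment carried this allele, and 4-hydroxytamoxifen (4OHT), which induces its deletion, was given to neither group of the main comparison. A further 4 libraries, 4OHT day 6 and 4OHT + PD0325901, served to read the same drug contrast after 4OHT. The last 2 libraries of the fit came from cells given 150 nM TSA, which blocks histone deacetylases. The labels name no vehicle for the untreated cells.

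ERK carries signals from growth factor receptors to the nucleus, where it switches on Ets factors, AP-1 factors and immediate early genes. In fibroblasts it drives entry into the cell cycle through cyclin D1. It also induces its own brakes, among them the dual-specificity phosphatases of the Dusp family, the Sprouty and Spred proteins and *Errfi1*, an inhibitor of the EGF receptor. mRNAs of such feedback genes are widely used as a readout of pathway output.

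Expression was given as FPKM (fragments per kilobase of transcript, scaled to the mapped fragments of the library), and the widths of the deposited confidence intervals corresponded to 10743000 to 12484000 fragments per library over the 10 libraries. Of 12 fibroblast markers with a value, 11 were at or above 1 FPKM in each of the 4 libraries. The summed FPKM of these markers was 3110 and 3390 in untreated cells and 4870 and 5420 with PD0325901. Most of this rise came from the collagen genes *Col1a1* (668 and 717 to 1720 and 1840 FPKM) and *Col1a2* (587 and 605 to 1360 and 1480 FPKM). The markers did not all rise. *Vim* (931 and 1090 to 652 and 468 FPKM) and *Thy1* (54.8 and 58.3 to 37.2 and 37.3 FPKM) were lower, neither of them called. The 5 muscle markers were under 0.1 FPKM in each library. The endothelial sum went from 0.129 and 0.211 to 0.917 and 0.806 FPKM. *Kdr* (0.0539 and 0.0445 to 0.512 and 0.493 FPKM) was called higher and *Tek* was at 0.334 and 0.312 FPKM with the drug. *Pecam1* was lower with the drug (0.0751 and 0.128 to 0.0714 and 0 FPKM), and *Cdh5*, *Tie1* and *Emcn* stayed under 0.1 FPKM. Sums of blood markers were 3.74 to 6.84 FPKM, mostly from *Cd68*, with *Ptprc* at 0, and sums of pluripotency markers were 0.612 to 1.33 FPKM, mostly from *Nanog*, with *Pou5f1* at 0. The part of these cell types in the results was not tested. The epithelial sum rose from 7.3 and 6.82 to 62.9 and 26.4 through *Krt19* alone, with *Krt18* and *Esrp1* at 0. In bulk RNA, more cells that express a gene and more RNA per cell cannot be told apart. *Setdb1* was measured at 8.76 and 10.1 FPKM in untreated cells and at 5.34 and 5.56 FPKM with PD0325901. In the deposited data of PD0325901 replicate 2, the title line names a 4OHT + PD0325901 library while the description line names the labelled group. The label was followed, and in that library *Irf7*, an interferon-induced regulator, was at 4.02 FPKM, against 266 and 321 FPKM in the 4OHT + PD0325901 libraries. Across the tested genes the libraries correlated at 0.974 between the untreated replicates and 0.965 between the PD0325901 replicates, on the log2(FPKM + 0.1) scale. Both TSA libraries, which are part of the same fit, stood apart, at 0.743 to 0.802 with the other 8.

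Between PD0325901 at 24 h and untreated cells, 831 of the 11509 genes tested differed, in both directions. A gene was called when limma gave an adjusted p below 0.05 and the change was at least 2-fold. By this rule 353 genes (3.07% of those tested) rose and 478 (4.15%) fell, 7.22% in all, and the median log2 fold change of all genes was -0.07. Adjusted p alone called 1575 genes (13.7%), and 3340 had an unadjusted p below 0.05. Without the TSA libraries 290 rose and 362 fell. With quantile-normalized values 378 rose and 333 fell. Both counts were smaller when an untreated library was left out, at 181 higher and 193 lower without replicate 1 and 171 higher and 169 lower without replicate 2. Without PD0325901 replicate 1 the counts were 242 and 306. With 2 libraries against 2, an exact permutation test of a single gene cannot go below 0.333, so that the calls rest on the spread shared across genes and groups. Nothing in the labels says whether replicates were separate cultures, so this spread may be technical. The labels also name no batch, so a batch difference between the groups cannot be told apart from the drug.

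**Figure D1:**
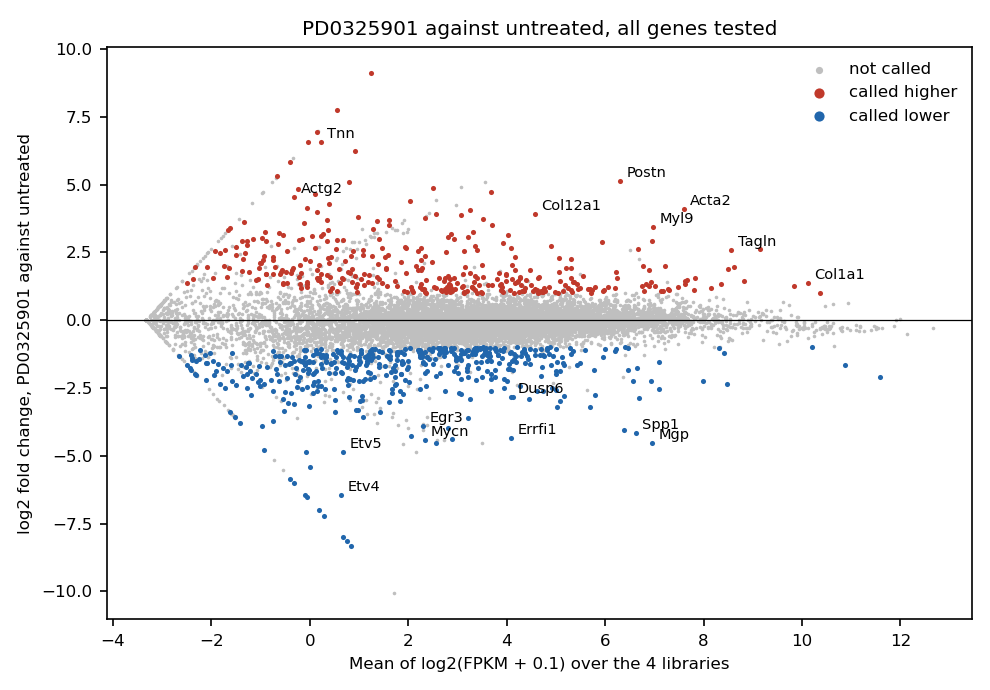
Each point is 1 of the 11509 genes tested, with the mean of log2(FPKM + 0.1) over the 4 libraries on the x axis and the log2 fold change of PD0325901 against untreated on the y axis. The 353 genes called higher are red and the 478 called lower are blue, and labels mark genes described in the text, such as *Etv4* at -6.46 and *Postn* at 5.12.

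Most called changes were moderate. Of the genes that rose, 228 changed by less than 2 on the log2 scale, 73 by 2 to 3 and 52 by more. Among those that fell the numbers were 337, 99 and 42. Both groups stood fully apart for 64.2% of all genes tested, 26.0% with PD0325901 higher and 38.2% with PD0325901 lower, so separation of 2 against 2 libraries was common across the whole table. Some calls rest on genes listed at exactly 0 throughout one group. Both untreated libraries were at 0 for 9 of the genes called higher and both PD0325901 libraries for 19 of those called lower, and in 5 and 9 of these cases the other group was at 5 FPKM or more. A 0 in these data may be a failed estimate, and fitted changes of such genes depend on the pseudocount.

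The 12 genes that fell furthest, among those above 0 in all 4 libraries, were *Etv4*, *Spry4*, *Trpm6*, *Etv5*, *Slc14a1*, *Mgp*, *Mycn*, *Pla2g7*, *Errfi1*, *Arc*, *Spp1* and *Penk*. *Etv4*, an Ets factor of the PEA3 group at chr11:101631062-101646624 (mm9), was at 13.8 and 15.3 FPKM in untreated cells and at 0.103 and 0.035 FPKM with PD0325901. The groups were far apart, and the PD0325901 values correspond to about 1.26 and 0.332 fragments, so the size of the drop is not well defined. It fell by 6.46 on the log2 scale (SE 0.24, adjusted p = 1.11e-05), or by 3.86 with a pseudocount of 1 and 7.67 with a pseudocount of 0.01. Among genes with ample signal, *Spp1*, which encodes the secreted matrix protein osteopontin, was at 425 and 410 FPKM untreated and 25.3 and 21.5 FPKM treated. Both treated libraries lay far below, 17.8-fold on the means (log2 -4.16, SE 0.17, adjusted p = 1.64e-05). *Penk*, the precursor of enkephalin peptides, went from 334 and 339 FPKM to 16.3 and 25.6 FPKM, 16.1-fold lower. *Mycn*, a transcription factor of the *Myc* family, went from 22.2 and 24.2 FPKM to 1.12 and 0.866 FPKM, 23.3-fold lower. *Mgp*, matrix *Gla* protein, was among the most abundant, at 589 and 607 FPKM untreated. Its PD0325901 libraries did not agree well, at 8.73 and 76.5 FPKM, and its call (log2 -4.52, SE 0.91, adjusted p = 0.0182) was lost without either untreated library. *Pla2g7*, a secreted phospholipase, was 22.2-fold lower, and *Slc14a1*, a urea transporter, was 24.0-fold lower.

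The 12 genes that rose furthest were *Tnn*, *Postn*, *2610528A11Rik*, *Thbd*, *Cdsn*, *Actg2*, *Aspn*, *Limch1*, *Wnt2b*, *Acta2*, *Cd24a* and *Adamtsl1*. *Postn*, which encodes the matrix protein periostin, was at 13.4 and 13.3 FPKM untreated and at 338 and 648 FPKM treated, 36.9-fold higher (log2 5.12, SE 0.45, adjusted p = 0.000681). *Acta2*, smooth muscle alpha-actin, was at 46.9 and 46.5 FPKM untreated and 819 and 773 FPKM treated, 17-fold higher (log2 4.09, SE 0.23, adjusted p = 9.83e-05). The treated libraries nearly coincided for *Acta2* and were further apart for *Postn*, and in both genes all treated values lay far above the untreated ones. *Thbd*, thrombomodulin, was at 0.946 and 0.953 FPKM untreated and 24.5 and 37.8 FPKM treated. *Tnn*, tenascin N, was barely detected in untreated cells, at 0.0126 and 0.0278 FPKM or about 1.0 and 1.99 fragments, and reached 10.3 and 12.5 FPKM. *Cd24a*, a small surface glycoprotein, was at 2.24 and 2.18 FPKM untreated but at 71.7 and 21.1 FPKM treated, and its call was lost without either untreated library or without PD0325901 replicate 1.

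Many genes that restrain ERK fell, while 2 phosphatases rose. Of 19 feedback inhibitors tested, 9 fell, 2 rose and 8 were not called (57.9% called, against 7.22% of all genes). Their median log2 fold change was -0.76, against -0.07 for all genes. *Errfi1* had the cleanest drop, from 76.2 and 77.5 FPKM to 3.56 and 3.76 FPKM, 21.0-fold lower (log2 -4.36, SE 0.18, adjusted p = 1.77e-05). *Spry4*, of the Sprouty family, went from 6.25 and 6.57 FPKM to 0.0992 and 0.0169 FPKM, and *Spry2* from 13.7 and 14.2 FPKM to 7.13 and 3.38 FPKM. All 3 Spred genes fell, with *Spred2* at 15.1 and 17.5 FPKM untreated and 2.39 and 2.84 FPKM treated, 6.24-fold lower. *Spred1* was 2.85-fold and *Spred3* 3.58-fold lower. Spred proteins act on Ras and Raf, upstream of MEK.

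The Dusp phosphatases moved in both directions. *Dusp6*, which acts on ERK in the cytoplasm (chr10:98725865-98730123, mm9), was at 44.5 and 46.6 FPKM untreated and at 9.82 and 3.94 FPKM treated, 6.62-fold lower (log2 -2.85, SE 0.38, adjusted p = 0.004). *Dusp5*, its nuclear counterpart, went from 21.6 and 24.9 FPKM to 8.16 and 3.44 FPKM. *Dusp4*, also nuclear, was low throughout, at 0.509 and 0.491 FPKM against 0.0327 and 0.0999 FPKM. *Dusp8* and *Dusp10*, which act mainly on JNK and p38 rather than ERK, rose from 3.65 and 4.05 to 8.92 and 8.81 FPKM and from 4.4 and 4.57 to 12.2 and 9.41 FPKM. In each of these genes the groups did not overlap. The number of feedback genes called lower was 7 without untreated replicate 1 and 5 without untreated replicate 2. The calls of *Dusp4*, *Dusp8* and *Spry2* were lost without untreated replicate 1 and also without untreated replicate 2. The call of *Dusp8* was lost without PD0325901 replicate 1 and that of *Spry2* without PD0325901 replicate 2 as well, while that of *Dusp4* was lost with a pseudocount of 1 (log2 -0.49). *Etv4*, *Etv5*, *Spry4*, *Spred1*, *Spred2*, *Errfi1* and *Dusp6* were called under every alternative run in which they were tested.

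**Figure D2:**
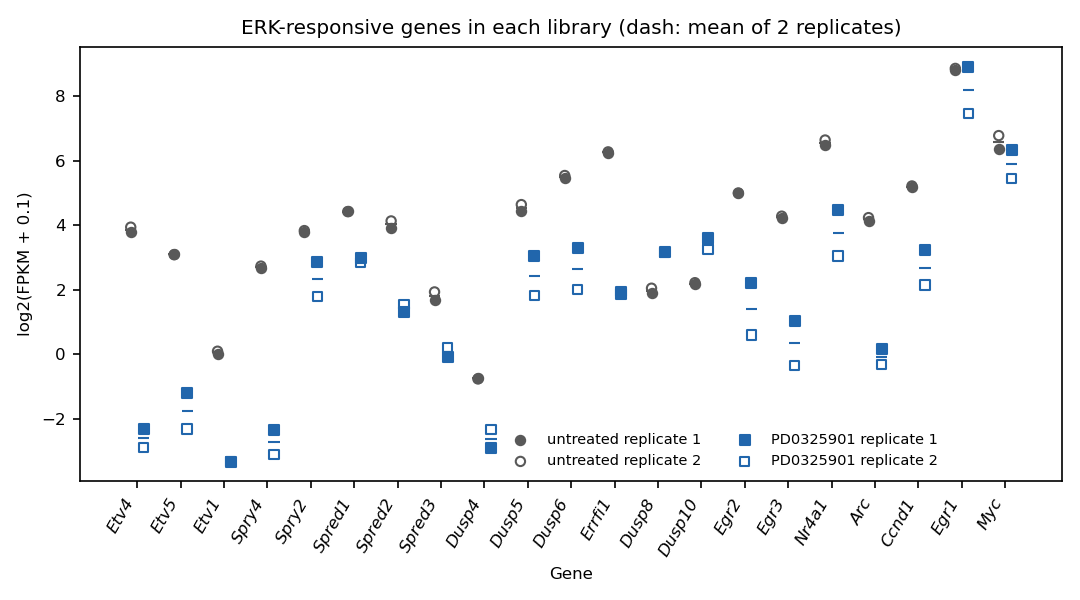
log2(FPKM + 0.1) of 21 ERK-responsive genes in each of the 4 libraries, untreated in grey and PD0325901 in blue, with replicate 1 filled, replicate 2 open and a dash at the mean. The untreated replicates nearly coincide, *Dusp8* and *Dusp10* lie higher with PD0325901, and *Egr1* and *Myc* overlap or nearly overlap between groups while most others lie far lower with the drug.

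Among the Ets family factors tested, which are direct or indirect targets of ERK, the calls were limited to the PEA3 group. The list held 24 genes, of which *Elk1* and *Erf* lacked a value of their own in every library and were not tested. Of 13 tested, 3 fell and none rose (23.1%, against 7.22% of all genes), with a median of -0.08. Besides *Etv4*, *Etv5* went from 8.58 and 8.42 FPKM to 0.341 and 0.102 FPKM, 38.4-fold lower (log2 -4.85, SE 0.38, adjusted p = 0.000397). *Etv1* was at 0.918 and 0.972 FPKM untreated and listed at 0 in both treated libraries, and its call was lost with a pseudocount of 1. *Etv4*, *Etv5* and *Etv1* together make up this subgroup. *Elk3* had an adjusted p of 0.0183 but changed by -0.84 on the log2 scale, short of 2-fold.

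Among AP-1 subunits, the *Fos* and *Jun* families, 1 gene fell and 1 rose. Of 12 tested, *Fosl1* was called lower and *Jund* higher (16.7%, against 7.22% of all genes), with a median of 0.25. *Fosl1*, a classical ERK target, was at 6.67 and 6.0 FPKM untreated and listed at 0 in both treated libraries. This call was lost when any of the 4 libraries was left out. *Jund* was at 41.4 and 44.7 FPKM untreated and 105 and 82.0 FPKM treated, 2.17-fold higher, a call lost without PD0325901 replicate 1.

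Immediate early genes, which ERK induces within minutes of a stimulus, leaned lower. Of 26 tested, 5 fell and 2 rose (26.9%, against 7.22% of all genes), and the median was -0.66. *Egr3* went from 18.8 and 19.4 FPKM to 1.96 and 0.685 FPKM, 14.5-fold lower (log2 -3.92, SE 0.42, adjusted p = 0.00155). *Arc*, a cytoskeleton-associated immediate early gene, went from 17.4 and 18.8 FPKM to 1.02 and 0.7 FPKM. *Egr2* fell from 32.3 and 32.0 FPKM to 4.57 and 1.42 FPKM and *Nr4a1*, an orphan nuclear receptor, from 88.9 and 100 FPKM to 22 and 8.2 FPKM. In both, PD0325901 replicate 2 lay well below replicate 1, and both calls were lost without either untreated library or without PD0325901 replicate 2. *Klf10* fell 2.67-fold. *Egr1*, the best known of these genes, was at 454 and 466 FPKM untreated and at 483 and 178 FPKM treated, so the groups overlapped (adjusted p = 0.508). *Myc* was at 82.8 and 110.0 FPKM untreated and 80.8 and 43.5 FPKM treated (log2 -0.69, adjusted p = 0.179). *Ctgf*, a secreted matricellular factor, rose from 41.0 and 40.7 FPKM to 465 and 136 FPKM, and *Klf2* rose 2.05-fold. The 5 calls fell to 3 without either untreated library or without PD0325901 replicate 2.

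In the cascade itself *Braf* and *Hras* rose and *Rasa1* fell. These 3 of 28 Ras-Raf-MEK-ERK components tested make up 10.7%, against 7.22% of all genes, at a median of 0.05. *Braf*, a Raf kinase, went from 2.85 and 3.11 FPKM to 6.47 and 7.73 FPKM, and *Hras* from 18.4 and 18.1 FPKM to 30.0 and 46.3 FPKM. *Rasa1*, a GTPase-activating protein that turns Ras off, went from 28.9 and 29.4 FPKM to 10.6 and 11 FPKM, 2.7-fold lower (log2 -1.42, SE 0.20, adjusted p = 0.00485). Both treated libraries were close to each other for *Rasa1*. Without either untreated library *Rasa1* was called lower and no component higher.

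Receptors and ligands upstream of Ras moved in both directions. Of 21 receptor tyrosine kinases tested, 4 rose and 2 fell (28.6%, against 7.22% of all genes), with a median of -0.02. *Fgfr2* went from 4.22 and 6.17 FPKM to 17.7 and 16.8 FPKM, 3.33-fold higher, and *Fgfr3* was 2.71-fold higher. *Mertk*, a receptor for *Gas6*, went from 7.66 and 8.29 FPKM to 0.909 and 1.46 FPKM, 6.74-fold lower. *Erbb3* was 3.21-fold lower, from 1.57 FPKM in both untreated libraries. *Kdr* and *Ror1* were called higher but stayed at or under 2.07 FPKM. With a pseudocount of 1, 2 receptors were called higher and 1 lower.

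Of 27 growth factor ligands tested, 6 rose and 5 fell (40.7%, against 7.22% of all genes), with a median of 0.39. The EGF receptor ligands *Areg* and *Ereg* were among those that fell, *Areg* from 1.54 and 2.23 FPKM to 0 and 0.0734 FPKM and *Ereg* from 4.51 and 4.48 FPKM to 1.38 and 0.526 FPKM. *Kitl*, the ligand of *Kit*, fell from 28.1 and 27.4 FPKM to 5.49 and 7.58 FPKM, and *Fgf7* and *Hgf* fell 3.35-fold and 8.13-fold. All 3 called platelet-derived growth factor genes rose, *Pdgfa* 2.4-fold, *Pdgfb* 3.14-fold and *Pdgfc* 2.79-fold. The call of *Pdgfb* was lost when any of the 4 libraries was left out, with a pseudocount of 1 and with quantile-normalized values. That of *Pdgfa* was lost without either untreated library or without PD0325901 replicate 1. *Fgf18*, *Fgf21* and *Gdf15* were also called higher, from at most 0.383 FPKM in untreated cells. Without either untreated library, 2 ligands were called higher and 2 lower.

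Of the cell cycle genes, cyclin D1 and 3 others fell. *Ccnd1*, which encodes cyclin D1 (chr7:152115836-152125830, mm9), was at 36.3 and 37.2 FPKM untreated and 9.35 and 4.33 FPKM treated, 5.37-fold lower (log2 -2.51, SE 0.34, adjusted p = 0.00403). Its kinase partner gene *Cdk6* went from 17.4 and 18.1 FPKM to 7.63 and 6.62 FPKM, 2.49-fold lower. Of 36 cyclin and replication genes tested, 4 fell and none rose (11.1% called, against 7.22% of all genes), with a median of -0.30. The other 2 were *E2f2*, a transcription factor of S-phase genes, and *Mki67*, a proliferation marker, which went from 46.8 and 50.5 FPKM to 16.5 and 22.5 FPKM. The number called was 1 without untreated replicate 1 and 2 without untreated replicate 2. Of 22 CDK inhibitors and p53 targets, only *Cdkn1a* was called, in the upward direction (4.55%, less than the 7.22% of all genes). It encodes the CDK inhibitor p21 and went from 23.2 and 23.0 FPKM to 51.4 and 62.4 FPKM, 2.46-fold higher (log2 1.29, SE 0.16, adjusted p = 0.00266). *Ccnd1* and *Cdkn1a* held their calls under every alternative. Of 13 *Bcl2* family genes, 7.69% were called, near the 7.22% of all genes. Only *Bcl2* itself was called, and it fell from 1.19 and 1.12 FPKM to 0.372 and 0.231 FPKM. This call was lost when any of the 4 libraries was left out, with a pseudocount of 1, with quantile-normalized values, with the 4 libraries alone and without the TSA libraries.

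Many genes of the contractile cytoskeleton rose. Of 24 genes of this list tested, 13 rose and none fell (54.2%, against 7.22% of all genes), and the median was 1.03. These genes are known targets of serum response factor (SRF), which binds the CArG box and acts with actin-sensing or ERK-activated partners. *Myl9*, a myosin light chain, went from 37.5 and 39.0 FPKM to 377 and 454 FPKM, 10.9-fold higher (log2 3.43, SE 0.17, adjusted p = 3.9e-05). *Cnn1*, calponin (chr9:21903697-21913665, mm9), went from 2.94 and 3.19 FPKM to 45.0 and 38.4 FPKM, 13.6-fold higher (log2 3.72, SE 0.12, adjusted p = 5.68e-06). *Tagln*, transgelin, went from 142 and 168 FPKM to 970 and 887 FPKM. The other called genes were abundant in untreated cells too and rose by about 2-fold or more, *Cnn2* 2.52-fold, *Tpm2* 2.38-fold, *Flna* 2.21-fold, *Cald1* 2.16-fold, *Actn1* 2.12-fold and *Smtn* 2.02-fold. *Acta1*, *Actg2* and *Lmod1* rose from under 0.4 FPKM. Actin genes share most of their coding sequence, so levels of *Acta1* and *Actg2* beside *Acta2* are uncertain. Leaving out a library of either group gave 10 to 14 genes called higher.

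The stretches before the starts of 3 called members of this list that hold a CArG box are shown as examples, from RefSeq promoters (build GRCm38.p6). Each is the 250 bases before the start, 5′ to 3′, with the CArG box in capitals. The position of *Acta1* is chr8:123894776-123895025 on the minus strand, that of *Cnn2* chr10:79988350-79988599 on the plus strand and that of *Myl9* chr2:156775214-156775463 on the plus strand. The boxes begin 73, 56 and 161 bases before the start.
*Acta1*: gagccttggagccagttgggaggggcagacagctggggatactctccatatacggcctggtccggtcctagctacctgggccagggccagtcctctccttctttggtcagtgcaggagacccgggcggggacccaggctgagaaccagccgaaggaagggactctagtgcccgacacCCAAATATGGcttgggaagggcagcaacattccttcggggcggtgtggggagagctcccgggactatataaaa
*Cnn2*: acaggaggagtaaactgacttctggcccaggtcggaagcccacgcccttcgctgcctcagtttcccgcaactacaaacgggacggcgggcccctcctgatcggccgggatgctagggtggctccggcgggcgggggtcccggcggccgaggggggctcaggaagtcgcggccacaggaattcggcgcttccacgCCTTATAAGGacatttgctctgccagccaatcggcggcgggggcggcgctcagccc
*Myl9*: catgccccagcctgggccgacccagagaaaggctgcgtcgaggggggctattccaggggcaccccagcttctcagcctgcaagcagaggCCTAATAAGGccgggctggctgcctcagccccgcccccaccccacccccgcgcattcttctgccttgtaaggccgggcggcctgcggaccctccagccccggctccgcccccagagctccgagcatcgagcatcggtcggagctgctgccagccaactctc
The CArG box reads the same way on both strands. In windows of 300 bases (250 before and 50 after the start), 7 of 24 promoters of the list held 1, or 29.2%, and 3 of 12 promoters of its called members, against 1.28% of 11016 promoters of tested genes. The list was made up of contractile genes and known SRF targets, and SRF binds this box. Its excess over the tested promoters therefore follows from how the list was chosen and says nothing about the drug. Within the list, the share was no higher among called members than among all members. Among all tested genes, the share was 4.62% for those called higher and 2.97% for those called lower. The Ets motif CCGGAAG was in 6.99% of promoters of genes called lower, 4.62% of those called higher and 17.2% of those of tested genes, and the AP-1 motif TGAGTCA in 5.08%, 4.31% and 3.76%, each searched on both strands. Neither motif was in the 12 windows of the ERK feedback and Ets genes called lower. A match is a description of letters and shows no binding.

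Many matrix genes rose as well. Of 34 collagen and matrix genes tested, 13 rose and 2 fell (44.1%, against 7.22% of all genes), and the median was 0.73. *Col1a1*, a chain of type I collagen, went from 668 and 717 FPKM to 1720 and 1840 FPKM, 2.57-fold higher (log2 1.36, SE 0.11, adjusted p = 0.000488), and *Col1a2*, which encodes the other chain, 2.38-fold higher. *Col12a1* went from 5.53 and 6.55 FPKM to 80.9 and 103 FPKM, 15.2-fold higher. *Lox*, the collagen cross-linking enzyme, went from 200 and 198 FPKM to 679 and 890 FPKM, and *Sparc* from 946 and 922 FPKM to 1930 and 1830 FPKM. *Dcn*, decorin, rose 7.21-fold, *Tnc*, tenascin C, 3.83-fold, and *Col5a2*, *Fbln2* and *Fbln5* by 2.57-fold to 2.75-fold. *Aspn*, asporin, rose from 0.758 and 0.828 FPKM to 12.6 and 27.8 FPKM. Against the rest, *Col18a1*, a basement membrane collagen, fell from 43.5 and 46.2 FPKM to 7.5 and 9.01 FPKM. With *Spp1* it was the only list member called lower.

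Of 21 matrix proteases and inhibitors, 5 rose and none fell (23.8%, against 7.22% of all genes). *Timp3*, an inhibitor of metalloproteinases, went from 132 and 130 FPKM to 428 and 354 FPKM, 2.98-fold higher. *Plau*, urokinase, was 2.12-fold higher. *Adamts1*, a secreted protease, went from 17.9 and 18.0 FPKM to 108 and 34.9 FPKM, with PD0325901 replicate 1 far above replicate 2. Without either untreated library 1 gene was called higher, and without any single library of the 4OHT groups 2 were. Without PD0325901 replicate 1, 1 was called higher and 1 lower, the latter *Mmp19*, a metalloproteinase at 9.95 and 9.13 FPKM untreated and at 4.77 and 0 FPKM with the drug. Among 29 genes of Notch, Wnt and TGF-beta responses, 6 rose and 1 fell (24.1%, against 7.22% of all genes), with a median of 0.46. *Tgfb2* and *Tgfb3*, TGF-beta ligands, rose 3.94-fold and 2.93-fold, with *Tgfb3* at 11 and 11.4 FPKM untreated and 33.4 and 32.3 FPKM treated. *Smad6*, *Hey2*, *Wisp2* and *Dkk3* rose, and *Dkk2*, a Wnt antagonist, fell 3.93-fold. In this list 4 genes rose and none fell without untreated replicate 1, and 3 rose and none fell without untreated replicate 2.

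**Figure D3:**
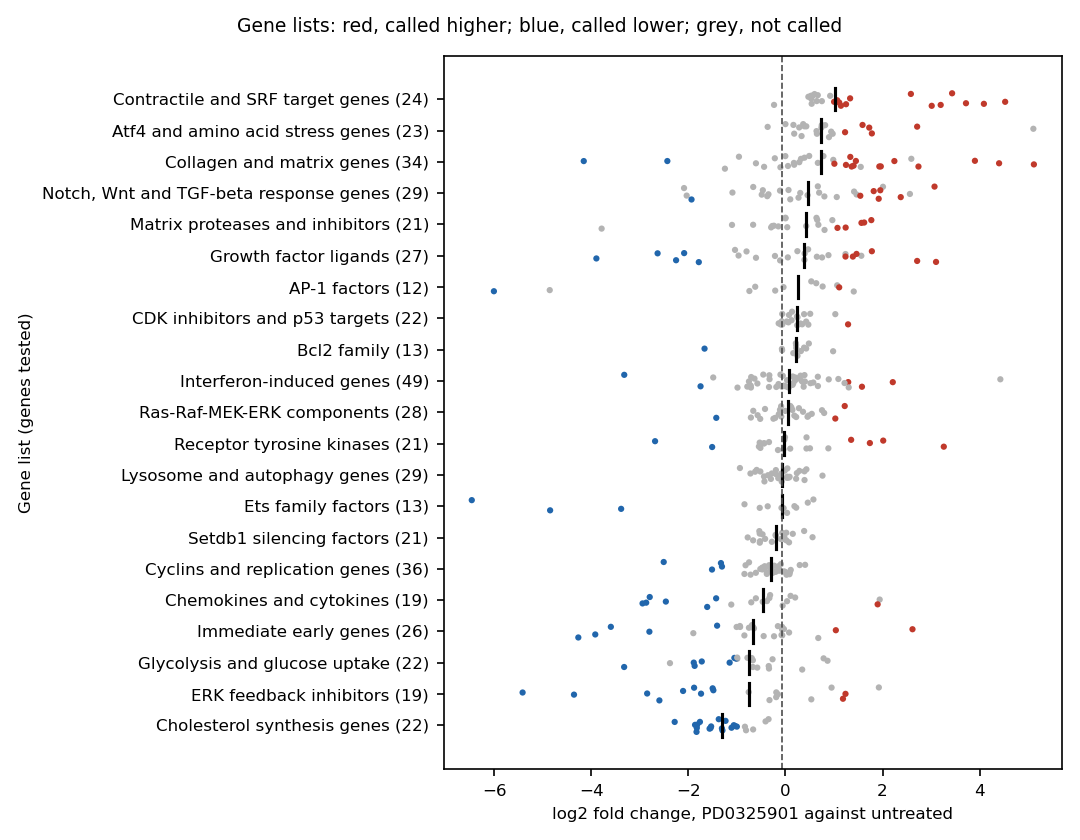
log2 fold change of PD0325901 against untreated for the tested members of 21 gene lists, 1 point per gene, with the number tested in brackets, a black bar at the list median and a dashed line at the median of all genes (-0.07). The lists run from cholesterol synthesis at -1.30 to contractile and SRF target genes at 1.03.

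Cholesterol synthesis was the list with the lowest median. Of 22 genes tested, 17 fell and none rose (77.3%, against 7.22% of all genes), and the median was -1.30. The enzymes form a linear route from acetyl-CoA to cholesterol, and most are driven by SREBP2, the sterol-sensing transcription factor. *Nsdhl* (chrX:70163860-70203867, mm9) went from 61.4 and 60.5 FPKM to 18.2 and 15.3 FPKM, 3.64-fold lower (log2 -1.86, SE 0.14, adjusted p = 0.000307). *Cyp51*, lanosterol demethylase, went from 169 and 165 FPKM to 49.8 and 44.0 FPKM, 3.56-fold lower. *Idi1*, *Lss*, *Fdps*, *Msmo1*, *Sc5d*, *Mvd* and *Fdft1* fell 2.36-fold to 3.54-fold. *Sqle*, squalene epoxidase, was 1.99-fold lower on the means. Regulators of sterol supply fell too, *Insig1* 2.96-fold and *Stard4* 2.49-fold. The number called lower was 12 without untreated replicate 1 and 11 without untreated replicate 2.

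Glycolysis leaned the same way. Of 22 genes of glycolysis and glucose uptake, 7 fell and none rose (31.8%, against 7.22% of all genes), with a median of -0.76. *Slc2a1*, the main glucose transporter, went from 29.3 and 29.6 FPKM to 15.6 and 12.8 FPKM, 2.07-fold lower, and *Slc2a3* fell 3.46-fold. *Pfkl*, a subunit of phosphofructokinase, went from 64.6 and 64.8 FPKM to 18.7 and 16.2 FPKM, 3.71-fold lower (log2 -1.89, SE 0.18, adjusted p = 0.000839). *Pdk1*, a kinase that inhibits pyruvate dehydrogenase, went from 15.1 and 14.0 FPKM to 3.96 and 3.84 FPKM. *Aldoc* fell 11.8-fold, *Gpi1* 2.22-fold and *Tpi1* 2.03-fold. Relative to untreated cells, the 7 genes had medians of -1.59 and -1.86 in the PD0325901 libraries. They were as low without the drug at 4OHT day 6, at -1.45 and -1.70, and at -1.57 and -1.72 with both. Both 4OHT day 6 libraries were below untreated for 6 of them and above for 1. None of the 22 genes was called lower by the drug after 4OHT, and the list median was -0.21. These values share the untreated libraries, except the last.

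Amino acid stress genes leaned higher. Of 23 targets and partners of *Atf4*, 5 rose and none fell (21.7%, against 7.22% of all genes), with a median of 0.74. *Trib3*, a pseudokinase, went from 8.17 and 7.43 FPKM to 23.8 and 28.5 FPKM, 3.35-fold higher, and *Pycr1*, of proline synthesis, rose 3.06-fold. *Slc7a5*, an amino acid transporter, went from 44.3 and 42.4 FPKM to 113 and 91.6 FPKM. *Fgf21* and *Gdf15* complete the called genes. Without either untreated library 3 were called. None of 29 lysosome and autophagy genes was called by limma, although 10 had an unadjusted p below 0.05 and 5 of these an adjusted p below 0.05 without reaching 2-fold.

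Several chemokines fell. Of 19 chemokines and cytokines tested, 6 fell and 1 rose (36.8%, against 7.22% of all genes), with a median of -0.47. *Ccl2*, which attracts monocytes, went from 273 and 283 FPKM to 51.2 and 28.1 FPKM, 7.01-fold lower (log2 -2.87, SE 0.49, adjusted p = 0.0104). *Cx3cl1*, fractalkine, went from 5.38 and 5.46 FPKM to 0.617 and 0.78 FPKM, and *Cxcl5* from 5.17 and 6.18 FPKM to 1.0 and 0.408 FPKM. *Cxcl1*, *Ccl9* and *Lif* also fell. *Tnfrsf11b*, the decoy receptor osteoprotegerin, rose 4.09-fold. Without either untreated library 1 gene was called lower and none higher.

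Interferon-induced genes were called in both directions. Of 49 tested, 3 rose and 2 fell (10.2%, against 7.22% of all genes), and the median was 0.07. *Irf7* went from 1.59 and 1.23 FPKM to 4.75 and 4.02 FPKM, *Usp18* from 0.0452 and 0.299 FPKM to 0.835 and 1.23 FPKM, and *Rtp4* 2.55-fold higher. *Ifitm1* and *Uba7* fell, *Uba7* from untreated libraries that differed at 9.69 and 3.83 FPKM. No gene of the list was called in either direction without untreated replicate 1 or without PD0325901 replicate 1, and none was called higher without PD0325901 replicate 2 or with a pseudocount of 1. None of 21 *Setdb1* silencing factors, *Setdb1* included, was called by limma. Among them 9 had an unadjusted p below 0.05, and 4 had an adjusted p below 0.05 with less than 2-fold change, *Uhrf1* at -0.52, *Dnmt1* at -0.47, *Cbx5* at -0.54 and *Hdac2* at 0.39 on the log2 scale.

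Spread between the drug-treated libraries was larger than between the untreated ones. Of all genes tested, 719 (6.25%) differed 2-fold or more between the PD0325901 replicates and 314 (2.73%) between the untreated replicates. The median absolute difference was 0.231 and 0.0899 on the log2 scale. Among the 478 genes called lower, PD0325901 replicate 2 was below replicate 1 for 177 and above it for 282. Among the 353 called higher it was below for 220 and above for 133. *Dusp5*, *Dusp6*, *Ccnd1*, *Egr1*, *Egr2* and *Egr3* were all lower in replicate 2. Dose and time are the same in both labels.

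The same drug was given to cells after 4OHT, in libraries that share none with the comparison above. The question there is whether the response differs in cells given 4OHT, which induces deletion of *Setdb1*. No cells without the cKO allele were given 4OHT, so 4OHT itself and loss of *Setdb1* cannot be told apart. *Setdb1* was listed at 0 in 4OHT day 6 replicate 1 and in both 4OHT + PD0325901 libraries, but at 5.3 FPKM in 4OHT day 6 replicate 2. The median interferon-induced gene stood 3.52 and 5.65 above untreated on the log2 scale in the 4OHT day 6 libraries, and 4.95 and 5.79 in the 4OHT + PD0325901 libraries. With PD0325901, 272 genes (2.36%) were called higher than at 4OHT day 6 and 159 (1.38%) lower. Without 4OHT day 6 replicate 2 these were 226 and 129, and without 4OHT + PD0325901 replicate 1 they were 172 and 106. With these 4 libraries alone in the fit, 64 and 40 genes were called.

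Genes called without 4OHT mostly moved the same way with it. Of the 353 that rose, 339 (96.0%) had a positive log2 fold change after 4OHT, against 54.2% of all genes, and 135 (38.2%) were called higher. Of the 478 that fell, 373 (78.0%) had a negative one, against 45.1% of all genes, and 84 (17.6%) were called lower, while 4 were called higher. The median log2 fold change in cells with 4OHT was 1.01 for the first set and -0.45 for the second. Both sets were picked by their change without 4OHT, where the median absolute values were 1.62 and 1.59. Smaller values after 4OHT therefore follow in part from that choice. The interaction subtracts the same change, so in these sets its sign leans against the call. Across all genes the log2 fold changes correlated at a Pearson r of 0.38 and a Spearman rho of 0.42, a description over 11509 genes, which are not independent.

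**Figure D4:**
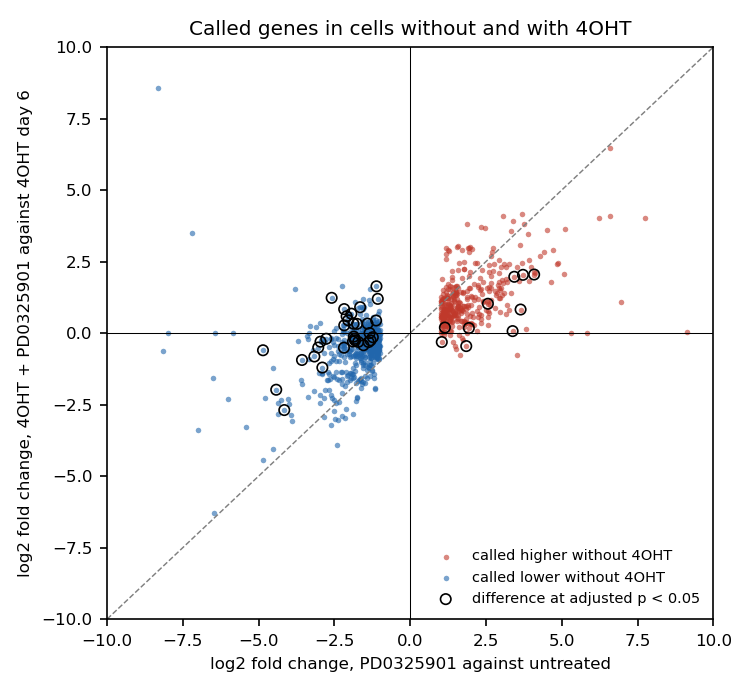
log2 fold change of PD0325901 against untreated (x axis) and of 4OHT + PD0325901 against 4OHT day 6 (y axis) for the 831 genes called without 4OHT, red where higher and blue where lower. Open circles mark genes above 0 in all 8 libraries whose change differed at an adjusted p below 0.05, and the dashed line marks equal change.

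Feedback genes were called lower after 4OHT too. With 4OHT, 9 of the 19 fell and 1 rose, the median was -0.96, and no difference between settings had an adjusted p below 0.05, while 2 did (*Dusp9* and *Errfi1*) with a replicate block in the 3 groups given 4OHT, PD0325901 or both. *Dusp6* was at 48.6 and 44.7 FPKM with 4OHT and 5.43 and 6.81 FPKM with the drug added. The difference between its changes was -0.07 (SE 0.54, adjusted p = 0.98). *Ccnd1* went from 84.2 and 61.5 FPKM to 14.8 and 13.6 FPKM. The collagen list also had like counts, 14 higher and 2 lower with 4OHT against 13 and 2 without.

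The response differed between settings for 84 genes (0.73%) by the interaction term, 60 (0.521%) with a more positive and 24 (0.209%) with a more negative change after 4OHT. Of these, 15 were listed at 0 in some of the 8 libraries, which leaves 53 and 16, and 1821 genes had an unadjusted p below 0.05. The counts were 12 and 21 without untreated replicate 1, 15 and 17 without untreated replicate 2, and 120 and 65 without PD0325901 replicate 2. With a replicate block in the PD0325901, 4OHT day 6 and 4OHT + PD0325901 groups alone they were 297 and 133. The cholesterol list held 7 of the 84, *Mvd*, *Fdft1*, *Lss*, *Cyp51*, *Nsdhl*, *Sc5d* and *Stard4*, and 12 genes of it differed with that block. *Nsdhl* was at 15.6 and 13.3 FPKM with 4OHT and 14.3 and 12.2 FPKM with 4OHT and drug, beside 18.2 and 15.3 FPKM with PD0325901 alone. Its difference between settings was 1.74 (adjusted p = 0.0113). None of the 22 genes was called after 4OHT, and the list median was -0.23. Relative to untreated cells, the 17 genes called lower had a median of -1.39 and -1.60 in the PD0325901 libraries, -1.28 and -1.48 in the 4OHT day 6 libraries, and -1.64 and -1.99 with both. These values share the untreated libraries.

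**Figure D5:**
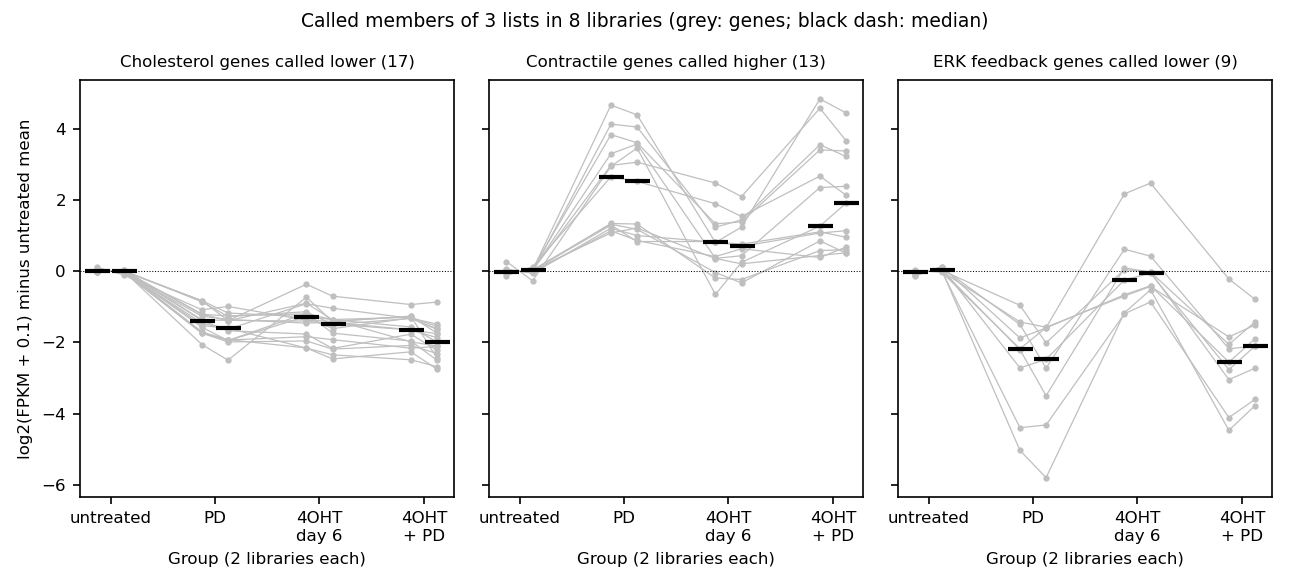
log2(FPKM + 0.1) minus the untreated mean in 8 libraries for the called members of the cholesterol (17 genes), contractile (13) and ERK feedback (9) lists, with genes in grey and the median as a black dash. In the cholesterol panel the 4OHT libraries lie near the PD0325901 level with or without the drug, whereas in the feedback panel the medians fall to between -2.10 and -2.55 when the drug is added to 4OHT.

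Of the 24 contractile genes, 4 differed between settings, all in the opposite direction, and 5 did so with the replicate block in 3 groups. *Acta2* was at 110.0 and 127 FPKM after 4OHT and 548 and 436 FPKM with the drug added, a log2 fold change of 2.05 against 4.09 without 4OHT (difference -2.04, adjusted p = 0.0487). *Cnn1* (difference -1.68, adjusted p = 0.00787), *Myl9* (-1.47) and *Flna* (-0.95) behaved in the same way. In this list 5 genes were called higher after 4OHT, with a median of 0.30. *Tnc* was at 45.9 and 59.7 FPKM after 4OHT and 48.9 and 71.2 FPKM with the drug added, against a 3.83-fold rise without 4OHT (difference -1.76, adjusted p = 0.0422). Of the 34 collagen and matrix genes, *Tnc* and *Spp1* differed between settings, *Spp1* with a positive difference of 1.46. With the replicate block in 3 groups, 5 genes of this list had a positive difference and 6 a negative one. *Pdk1* was at 3.46 and 3.83 FPKM after 4OHT and 4.84 and 4.35 FPKM with the drug (difference 2.2, adjusted p = 0.0109). *Trpm6*, an ion channel at 5.51 and 4.5 FPKM in untreated cells, was at 0.101 and 0.129 FPKM after 4OHT without the drug.

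The largest differences by the naming rule belonged to genes listed at 0 in whole groups. *Gps2* was at 30.6 and 33.9 FPKM untreated, 0 in both PD0325901 libraries, 0 in both 4OHT day 6 libraries and 35.2 and 40.1 FPKM with both. *Kdelr3* and *Cog4* were listed at 0 in both 4OHT day 6 libraries alone. *Elp5* was at 0 in the untreated libraries alone, and *Surf2* had values in the 4OHT day 6 libraries alone. These 5 sat at 24.8 to 76.7 FPKM wherever they had a value, and each library was assembled separately. Fitted differences of these genes depend on the pseudocount and do not measure a size.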

How the data were processed

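RNA-seq libraries (TruSeq RNA) of the inhibitor experiment were analysed: 2 untreated, 2 PD0325901, 2 TSA, 2 4OHT day 6 and 2 4OHT + PD0325901. The deposited values are FPKM per gene. Reads had been mapped by the authors with TopHat2 2.0.12 (mm9), and FPKM estimated for each library separately with Cufflinks, which joined 406 to 459 loci of several genes per library. The deposited confidence bounds of the FPKM were used to derive implied fragments. Of 22983 gene names, 21846 occurred in all 10 libraries (microRNA and snoRNA names left out), loci of 1 symbol were summed, and 11509 genes with at least 1 FPKM in 2 libraries were tested. The kit does not mark strand, so that overlapping and antisense genes cannot be told apart.

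limma 3.58.1 (R 4.3.3, trend) was fitted to log2(FPKM + 0.1) over all 5 groups, with Benjamini-Hochberg adjustment. A call needed an adjusted p below 0.05 and a 2-fold change, and the difference between settings (interaction) an adjusted p below 0.05. A log2 fold change is on this scale, which understates changes of low genes, and a fold is the ratio of mean FPKM. Tested on simulated data for this comparison (10610 genes), 58 of 93 genes changed by 1.5 on the log2 scale and 74 of 93 changed by 2 were called, with 3 false calls. The simulation gave each gene the same independent spread in all groups. It did not model the larger spread between the PD0325901 libraries, so the number of false calls may not hold for the real data. Named genes were *Setdb1*, the 12 highest and 12 lowest log2 fold changes among genes with an adjusted p below 0.05, above 0 FPKM in all 4 libraries and not overlapping, members of 21 gene lists, and the 3 largest differences between settings in each direction. Some genes that this rule covers are not reported here. Gene lists, members and tests were chosen with earlier results of these data known. RefSeq promoters matched 8594 tested genes. Other libraries of the series and the authors' tables of group FPKM, fold changes and p-values were not used. Alternatives were other pseudocounts (1 and 0.01), filters, scalings, library sets, the replicate block and leaving out each library. Depth limits low genes: intervals implied by the files cover counting error only.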

Additional observations from a re-analysis of the deposited data

Results flagged for a closer look

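The following named genes had a response to PD0325901 that differed between cells without and with 4OHT, by the interaction term at an adjusted p below 0.05 (limma). Each value is the log2 fold change after 4OHT minus that without it. All cholesterol genes that were flagged had positive values, with *Mvd* at 1.06, *Fdft1* at 1.09, *Lss* at 1.56, *Cyp51* at 1.63, *Nsdhl* at 1.74, *Sc5d* at 1.12 and *Stard4* at 1.05. *Pfkl* was at 1.59 and *Pdk1* at 2.2. Among genes that fell without 4OHT, *Trpm6* was at 4.26, *Mycn* at 2.44, *Klf10* at 1.74 and *Spp1* at 1.46. Of these, *Spp1* is a matrix gene. The contractile genes *Acta2* (-2.04), *Cnn1* (-1.68), *Myl9* (-1.47) and *Flna* (-0.95) had negative values, as had the matrix gene *Tnc* (-1.76). *Npr3*, a natriuretic peptide receptor named after its values were seen, was at -3.31, from 0.536 and 0.788 FPKM untreated to 9.07 and 6.56 FPKM with PD0325901, and from 2.15 and 3.32 FPKM to 2.92 and 2.7 FPKM after 4OHT.

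The fitted differences of *Gps2* (16.89), *Kdelr3* (9.04), *Cog4* (8.69), *Elp5* (-9.09) and *Surf2* (-9.05) come from whole groups listed at 0 and depend on the pseudocount. Groups of 2 libraries do not allow a search for single deviating libraries.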

How the results depend on the processing

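For PD0325901 against untreated, 353 genes rose and 478 fell. Leaving out 1 library gave 171 to 358 higher and 169 to 519 lower, with both low ends without an untreated library. A pseudocount of 1 gave 312 lower, and no fold limit gave 680 higher and 895 lower. For 4OHT + PD0325901 against 4OHT day 6, leaving out 1 library gave 172 to 286 higher and 106 to 177 lower, the 4 libraries alone gave 64 and 40, and no fold limit gave 489 and 299. For the interaction, leaving out 1 library gave 12 to 120 more positive and 15 to 65 more negative changes, and median-ratio scaling gave 29 more positive ones. Where an arm is left with 1 library, that library is assumed to vary like the other groups. The cause of these shifts was not tested.

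The check of named genes left out some that were not called. Of the 149 it covered, 142 were called. Leaving out untreated replicate 1 ended 54 of these calls, untreated replicate 2 ended 53, PD0325901 replicate 1 ended 31 and PD0325901 replicate 2 ended 21. A pseudocount of 1 ended 18, and every other alternative ended at most 9. *Egr1* went to -1.37 without PD0325901 replicate 1 and turned to 0.07 without PD0325901 replicate 2, and *Kdelr3* to -0.04 without untreated replicate 1 and -0.12 without PD0325901 replicate 2 (0.21 without PD0325901 replicate 1), none of them called.

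The replicate numbers are shared between groups, but the differences between replicates correlated at 0.206 to 0.266 among the PD0325901, 4OHT day 6 and 4OHT + PD0325901 groups and at -0.026 to 0.038 for the other 7 pairs of groups. With 2 numbers this is a hint from the data that these 3 groups share something by number, not a pairing given by the labels, and none was seen between untreated and PD0325901. Whether the untreated libraries were made apart from these 3 groups is not given. In the main comparison such a batch and the drug cannot be told apart. With the replicate block, PD0325901 against untreated gave 376 higher and 524 lower, 4OHT + PD0325901 against 4OHT day 6 gave 304 and 176, and the interaction 56 and 17, and no named call was lost. With the block in those 3 groups alone, the first comparison gave 413 and 600, the second 375 and 218 and the interaction 297 and 133, with no named call lost and all 24 named differences between settings past the threshold. The fit of the interaction with the 4 libraries alone was not run, since it needs all 4 groups. The alternatives without the TSA libraries, with genes above 0 in all 10 libraries without single 4OHT libraries and with the block in 3 groups were chosen after seeing the data. Low genes limit the sizes, since *Etv4* had about 1.26 and 0.332 fragments in the treated libraries.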

Other observations

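A few markers of other cell types, outside the gene lists of the report, were called. *Krt19*, an epithelial keratin, was at 5.97 and 5.28 FPKM untreated and 62.6 and 26.3 FPKM with PD0325901, while *Epcam*, an epithelial adhesion molecule, went from 0.839 and 1.09 FPKM to 0.196 and 0.0797 FPKM. *Pparg*, a regulator of adipocyte differentiation, went from 1.72 and 0.838 FPKM to 7.77 and 5.91 FPKM, with *Adipoq* and *Plin1* listed at 0 in all 4 libraries. The adipocyte marker *Fabp4* went the other way, from 7.2 and 13 FPKM to 4.02 and 3.25 FPKM, and was not called. *Cebpa* and the summed FPKM of the 5 adipocyte markers overlapped between the groups. Among fibroblast markers, *Vim*, which was not called, was at 931 and 1090 FPKM untreated and 652 and 468 FPKM with PD0325901.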
